A study of Danio rerio with 7 samples.

Results

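The long arm of zebrafish chromosome 4 was taken as every gene of the deposited tables whose first chromosome entry was 4 and whose smallest exon start lay at position 27000000 or beyond on the Zv9 genome build. This gave 1825 genes of 33737 in all, or 72.5% of the 2517 genes on chromosome 4, and the 692 chromosome 4 genes below that position served as the comparison. RNA sequencing had been done on heart tissue at 96 h post-fertilization (hpf), as the tissue label and the methods state, while the sample titles name embryos. Of the 7 libraries, 4 were homozygous mutants of genotype cora stl325/stl325; Tg(cmlc2::gfp), and 3 were unaffected Tg(cmlc2::gfp) clutchmates that served as controls. The stl325 allele, named corazoncito and recovered from a chemical mutagenesis screen, carries a nonsense mutation in taf5, and no treatment was given. The labels call the genotypes KO and WT, but unaffected clutchmates can include carriers of a single mutant allele. Both groups carried the transgene, in which the cmlc2 promoter drives green fluorescent protein in cardiomyocytes. Hearts were pooled within a library. The control libraries are labelled 1, 3 and without a number, and the last is called the unnumbered control.

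The long arm of this chromosome is known as an unusual part of the zebrafish genome. It replicates late, is rich in repeats and heterochromatin, and holds large families of zinc finger and NLR (nucleotide-binding, leucine-rich repeat) genes beside clusters of 5S ribosomal RNA and small nuclear RNA genes. Small nuclear RNAs such as U1 and U6 are the RNA parts of the spliceosome, and in wild strains the arm also carries a signal for sex. taf5 encodes a scaffold subunit of TFIID, the general factor that recruits RNA polymerase II to promoters.

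The libraries held between 21474488 and 32037220 counts on genes. Control 1 had the lowest TMM scaling factor, at 0.839, and genes of the mitochondrial chromosome took 33.7% of its reads, compared with 16.8% to 21.8% in the other 6 libraries. taf5 stood at 6.40 ± 2.11 CPM (library-scaled counts, with TMM factors; SD, n = 3) in controls and at 3.33 ± 1.09 CPM (SD, n = 4) in cora libraries, with a log2 fold change of -0.94 (SE 0.38, edgeR adjusted p = 0.232). Of 9 cardiomyocyte markers, 5 could be matched by symbol, and their summed counts made up 0.0180% to 0.281% of the control libraries and 0.0237% to 0.150% of the cora libraries. The 8 liver markers made up 0.672% to 2.76% and 0.347% to 2.36%, and the 7 epidermis markers 1.01% to 3.00% and 1.66% to 3.01%. The summed level of the 5 heart markers matched of 9 was therefore below that of the liver markers and that of the epidermis markers in each library. All 5 had a log2 fold change below 0 (median -1.15). Of the liver markers 7 were below 0 and 1 above (median -0.89), and of the epidermis markers 4 below and 3 above (median -0.02). Of these 3 sets, 0 markers were called. Of 8 exocrine pancreas markers, 4 could be matched, and all 4 were called lower in cora libraries (median log2 fold change -5.59). Their sum went from 0.298% to 1.32% of counts in controls to 0.0282% to 0.0537% in cora libraries. Of 6 lens markers, 3 could be matched, and all 3 had a log2 fold change above 0, with 2 called higher. The sum of these 3 went from 0.0141% to 0.0272% in controls to 0.0612% to 0.666% in cora libraries. No marker that was matched was at 0 in every library. In pooled tissue, fewer cells of a type and less RNA per cell cannot be told apart.

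Most of the genes on the long arm had no or few counts in these libraries. At least 1 count in any library was found for 848 of the 1825 genes (46.5%), against 660 of 692 (95.4%) below the boundary and 85.7% of all genes, and 977 long arm genes were at 0 in all 7 libraries. A count of 0 allows a level of up to 3 counts, which are worth 0.0910 to 0.139 CPM in a library. The 977 genes were therefore not detected, which does not show that they were silent. How reads that match several places were counted is not stated, and its part in the 0 counts was not tested. Between 29.5% and 35.5% of long arm genes were detected in a single library, compared with 82.5% to 88.9% below the boundary. On each other chromosome, and below the boundary on chromosome 4, the share detected in any library was at least 83.8%. Only 253 long arm genes (13.9%) had enough counts to be kept for the test, against 519 (75%) below the boundary and 64.1% of all genes. A mean level of at least 1 RPKM (CPM per kilobase of exon) was reached by 92 long arm genes and a mean of at least 10 RPKM by 17, whereas 439 and 142 genes below the boundary reached these levels.

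The genes kept for the test also had lower counts per length. Their median stood at 0.59, 0.52 and 0.50 RPKM in control 1, control 3 and the unnumbered control, and at 0.56, 0.69, 0.58 and 0.48 RPKM in cora 1 to 4. Below the boundary the median lay between 3.73 and 4.21 RPKM. The ratio of the medians ranged from 5.77 in cora 2 to 8.42 in cora 4, so the order was the same in 7 of 7 libraries, and the groups overlapped in it. The counting of reads that match several places is not stated, and its part in these levels was not tested. Precision was lower as well, with a median standard error of the log2 fold change of 0.63 on the long arm and 0.34 below the boundary. The part of the lower counts in this was not tested.

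**Figure D1:**
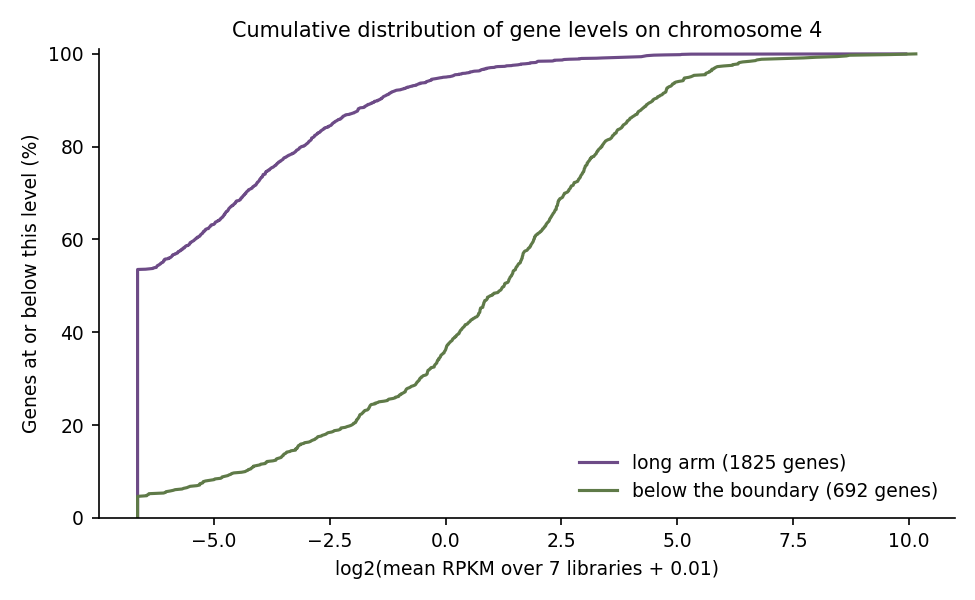
Cumulative share of genes (vertical axis, %) by their mean level over the 7 libraries (horizontal axis, log2 of RPKM + 0.01) for the long arm and for chromosome 4 below the boundary. The curve of the long arm begins with 53.5% of genes at 0 and the other with 4.62%, and the long arm curve lies to the left along almost its whole course.

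Gene structure differed along with detection. A single exon was annotated for 867 long arm genes (47.5%) and for 61 genes below the boundary (8.82%), and 64 of these 867 were detected. Among genes with 2 or more exons, 784 of 958 (81.8%) were detected on the long arm and 616 of 631 (97.6%) below the boundary, and 25.4% and 80.7% were kept for the test. The difference in detection was therefore smaller, but still present, without the single-exon entries. A symbol was found for 304 long arm genes (16.7%), against 590 (85.3%) below the boundary.

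Many of the single-exon entries had identical lengths. The long arm held 423 entries of exactly 107 bases, of 635 in the whole table, and 172 entries of exactly 164 bases, of 289. Only 4 of the 423 and 1 of the 172 had any count, and no library had more than 1 count on any of them. Entries of these lengths were rarely detected in the whole table, long arm included, with 19 of the 635 and 3 of the 289. Over the whole table, 4 of the 107-base entries were named U6, none of them on the long arm, and 5 of the 164-base entries were named U1, 2 of them on the long arm. The unnamed entries were given no identity here. Single-exon entries of at most 200 bases numbered 813 on the long arm and 51 below the boundary. Without them 80.8% of long arm genes were detected, against 97.7% below the boundary.

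Detection and level also varied along the arm. In the first 5 Mb from the boundary, 103 of 248 genes (41.5%) were detected, and in the 25 Mb that followed 562 of 1378 (40.8%). Between 30 and 35 Mb from the boundary 175 of 190 genes (92.1%) were detected and 115 (60.5%) were kept for the test, shares much closer to those found below the boundary. All 9 genes of the last window began within 35.1 Mb of the boundary, and 8 of these were detected. The low share of detected genes was thus found over the first 30 Mb and not at the outer end. Single-exon entries made up 34.5% to 65.1% of genes in each of the first 6 windows and 8.95% in the seventh.

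The 1378 genes of the inner 25 Mb were 75.5% of the arm's genes but held 7.82% of its CPM. Summed, they reached 110 to 183 CPM per library, with 137 ± 39.9 (SD, n = 3) in controls and 137 ± 26.1 (SD, n = 4) in cora libraries. The lowest sum, 110 CPM, was that of the unnumbered control and the highest, 183 CPM, that of control 1. Control 1 lay above the other controls in every 5 Mb window of the inner 25 Mb, so the equal means depended on that library. The first 5 Mb held 56.9% of the arm's CPM and the window from 30 to 35 Mb held 30.5%. Between 30 and 35 Mb, the sum was 383 ± 36.4 CPM in controls and 648 ± 128 CPM in cora libraries, and each cora library lay above each control library.

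**Figure D2:**
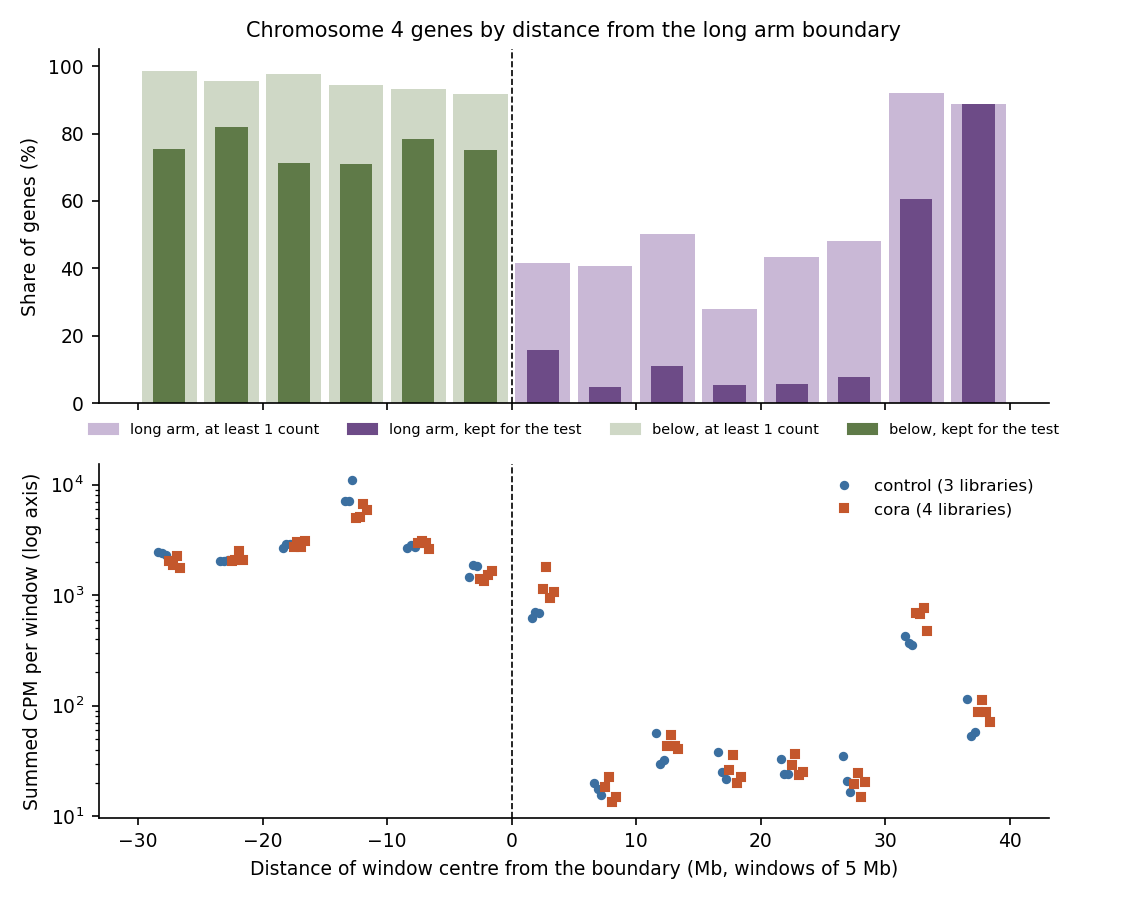
Upper plot, share of chromosome 4 genes (%) with at least 1 count in any library (wide bars) and kept for the test (narrow bars) in windows of 5 Mb by distance from the boundary; lower plot, summed CPM of each window in each of 3 control and 4 cora libraries on a log axis. Windows from 0 to 30 Mb have 27.9% to 50.2% of their genes detected, and sums fall from over 626 CPM in the first window to between 13.5 and 56.1 CPM in the next 5 windows.

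A single gene held most of the reads of the first window. ENSDARG00000005039, which the symbol table does not name, lies at chr4:29632402-29639074 (Zv9, plus strand) with 7 exons of 836 bases in all. It stood at 423, 543 and 531 CPM in control 1, control 3 and the unnumbered control, and at 949, 1592, 775 and 893 CPM in cora 1 to 4. Every cora library was above every control library, with cora 2 the highest. Its log2 fold change was 1.08 (SE 0.30, edgeR adjusted p = 0.109), so it did not pass the threshold. It passed with DESeq2 (adjusted p = 0.0127) and with limma's voom with sample quality weights (adjusted p = 0.0191). This gene took 31.4% to 57.6% of the arm's counts in a library, and its mean level of 975 RPKM was far above that of cct2, the next gene on the arm, at 39.4 RPKM. A pair of other genes of the first window was picked after its values were seen. ENSDARG00000057338, which begins 2.62 Mb from the boundary, stood at 21.4, 7.19 and 5.27 CPM in controls and at 22.9, 15.4, 10.9 and 8.99 CPM in cora 1 to 4, with overlap between the groups and a log2 fold change of 0.37 (SE 0.51, edgeR adjusted p = 0.765). Control 1 was high for this gene, and without it the log2 fold change was 1.23. ENSDARG00000037665 stood at 24.7, 27.9 and 26.7 CPM and at 19.1, 29.3, 33.8 and 22.6 CPM, and its log2 fold change was -0.01 (SE 0.24, edgeR adjusted p = 0.987). Whether these differed from ENSDARG00000005039 in their change was not tested.

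Over the whole arm, the share of counts was higher in cora libraries. Long arm genes received 0.113%, 0.128% and 0.129% of counts in control 1, control 3 and the unnumbered control, and 0.213%, 0.301%, 0.193% and 0.164% in cora 1 to 4. The log2 ratio of the means was 0.82, and the groups did not overlap. These shares are of all counts, those of the mitochondrial chromosome included. Without the mitochondrial counts, the shares were 0.156% to 0.170% in controls and 0.199% to 0.373% in cora libraries. The log2 ratio was then 0.75, also without overlap. Most of this difference lay in ENSDARG00000005039 and in a stretch of 17 neighbouring genes near the outer end, described next. Without both, the shares of all counts were 0.0639% to 0.0707% in controls and 0.0647% to 0.0913% in cora libraries, the groups overlapped, and the log2 ratio was 0.17. Leaving out these genes was chosen after their values were seen.

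**Figure D3:**
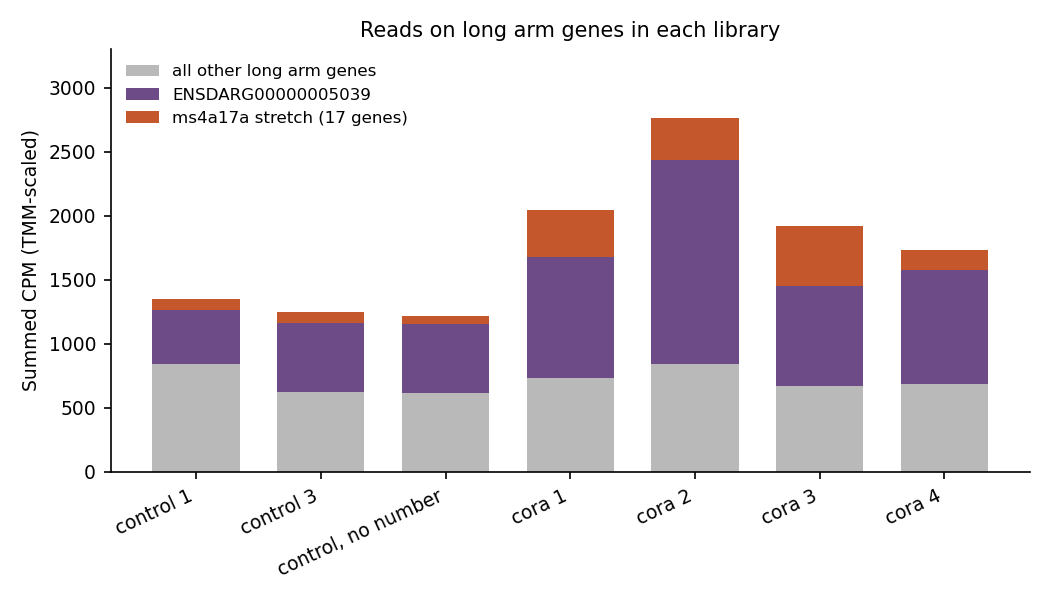
Summed TMM-scaled CPM of long arm genes (vertical axis) in each library, split into ENSDARG00000005039, the ms4a17a stretch of 17 genes and all other long arm genes. The grey part lies between 619 and 843 CPM in all 7 libraries. It is 843 CPM in control 1, and in the other controls (621 and 619 CPM) it is below each cora library (673 to 839 CPM). The other parts are larger in the 4 cora libraries than in the 3 controls.

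Between the genotypes, 6 of the 253 tested genes rose in cora libraries and 0 fell at an edgeR adjusted p under 0.05. This is 2.37% of the genes tested, near the background of 1.97% called in either direction over all 21632 genes tested (1.11% higher and 0.86% lower), so the number of calls did not set the arm apart. At an unadjusted p under 0.05, 24 long arm genes were higher and 8 lower (12.6%), against 17.7% of all genes tested in either direction. For 25 long arm genes every cora library lay above every control library and for 7 below, or 12.6%, where 17.7% of all genes tested did either, 9.01% above and 8.73% below. DESeq2 called 1 gene lower and 14 higher, or 3.44% of the 436 long arm genes it gave an adjusted p, against 7.49% of 23851 such genes in all. Limma's voom called 5 higher (1.98%, against 1.79% of all genes tested), and voom with sample quality weights 2 lower and 20 higher (8.70%, against 14.4%). Below the boundary 6 genes fell and 7 rose, or 2.50%. The median log2 fold change was 0.06 over the long arm, -0.05 below the boundary and -0.03 over all genes. Without control 1 it was 0.32 over the long arm and 0.01 over all genes. In the inner 25 Mb 0 of 91 tested genes were called by edgeR, with 3 higher and 3 lower at an unadjusted p under 0.05; voom also called 0, DESeq2 1 (0.427%) and voom with sample quality weights 3 (3.30%), all higher.

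All 6 calls lay together. They fell within a stretch of 17 consecutive genes from ms4a17a.11 to si:ch73-56d11.3, at chr4:60581972-60850574 (Zv9) and all on the plus strand, of which 11 have an ms4a17a symbol. Genes of the MS4A family encode small proteins that span the cell membrane several times, and the best known human member, MS4A1, is the B cell antigen CD20. The limits of the stretch were set after the values were seen, so its counts describe it and test nothing. Of 16 tested genes, 15 had a log2 fold change above 0, 6 were called, 14 had an unadjusted p under 0.05, and the median was 1.68. For 12 of the 16, every cora library was above every control library, where 9.01% of all genes tested did so. Outside the stretch, 0 of 237 tested long arm genes were called, with 10 higher and 8 lower at an unadjusted p under 0.05, and the median was 0.02. There DESeq2 called 1 lower and 4 higher (1.19% of those with an adjusted p), voom 0, and voom with sample quality weights 2 and 9 (4.64%). These shares lie below the 7.49% and 14.4% of these tools over all genes. The stretch left out holds all 6 edgeR calls and was set after the values were seen. That choice lowered the counts and shares outside it, so this comparison decides nothing. The median edgeR standard error was 0.65 outside the stretch and 0.37 over all genes, and the part of this lower precision in the shares was not tested.

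**Figure D4:**
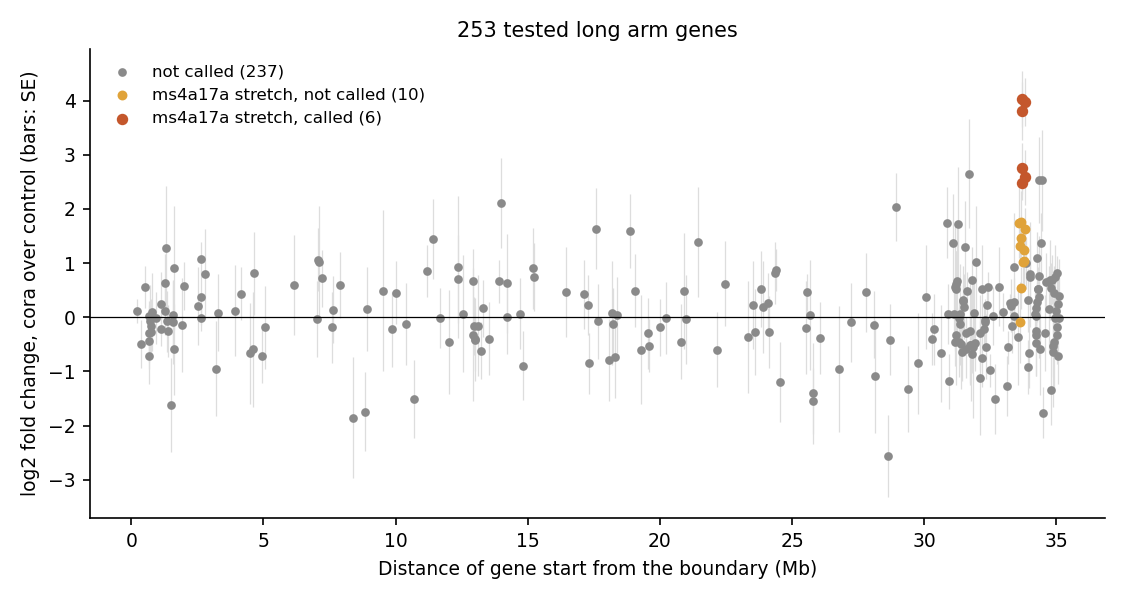
Log2 fold change of cora over control with its standard error (vertical axis) for the 253 tested long arm genes by distance of the gene start from the boundary (horizontal axis, Mb). The 6 called genes, between 2.48 and 4.03, sit in the ms4a17a stretch, where all but 1 of the tested genes lie above 0. Genes outside the stretch lie on either side of 0. Some are as far from 0 as called genes, such as si:ch211-165i18.2 at 2.65 and znf1068 at -2.55.

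The called genes went from low to moderate levels. ms4a17a.4, at chr4:60701171 onward, stood at 5.17, 2.79 and 2.75 CPM in control 1, control 3 and the unnumbered control and at 61.4, 64.9, 86.2 and 20.4 CPM in cora 1 to 4. Its log2 fold change of 4.03 (SE 0.52, edgeR adjusted p = 0.0123) was the largest of the 6. si:ch73-56d11.3, the last gene of the stretch and named only by its clone, stood at 0.52, 0.73 and 0.72 CPM and at 11.8, 10.8, 14.1 and 5.01 CPM. It had the smallest edgeR adjusted p on the arm (log2 fold change 3.97, SE 0.45, adjusted p = 0.0080), and it was called with any single library left out. si:ch73-56d11.5 stood at 2.67, 2.25 and 3.63 CPM and at 52.6, 35.4, 59.8 and 12.5 CPM (log2 fold change 3.81, SE 0.54, edgeR adjusted p = 0.0161). In each of these 3 genes the lowest cora library was cora 4, and it was still above the highest control.

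The other 3 called genes showed smaller differences. ms4a17a.5 stood at 7.88, 4.98 and 3.47 CPM in controls and at 39.0, 35.5, 55.8 and 15.6 CPM in cora 1 to 4 (log2 fold change 2.75, SE 0.46, edgeR adjusted p = 0.0287). ms4a17a.12 stood at 6.33, 3.64 and 2.23 CPM and at 29.7, 20.2, 37.0 and 10.1 CPM (log2 fold change 2.58, SE 0.51, edgeR adjusted p = 0.0432), and it was not called by limma's voom (adjusted p = 0.0575). ms4a17a.1 stood at 2.15, 1.64 and 1.67 CPM and at 11.9, 10.2, 11.6 and 6.82 CPM (log2 fold change 2.48, SE 0.32, edgeR adjusted p = 0.0123). Again the groups did not overlap and cora 4 was the lowest cora library. Apart from si:ch73-56d11.3, each of the 6 lost its call without at least 1 library, while all 6 log2 fold changes stayed at 2.28 or above with any library left out. On the long arm 1 gene was called higher without the unnumbered control and 1 without control 3, 2 without cora 1, 4 without cora 2 and 4 without cora 3, and the calls over all genes went from 426 to 34, 41, 51, 208 and 85. Without control 1, 9 long arm genes were called higher, of 1207 calls over all genes, and without cora 4 the number was 10 of 635. With the 4 libraries numbered 1 and 3 and their number as a block, 0 long arm genes were called, with 19 at an unadjusted p under 0.05, and 0% of all 21404 genes tested in that fit were called.

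**Figure D5:**
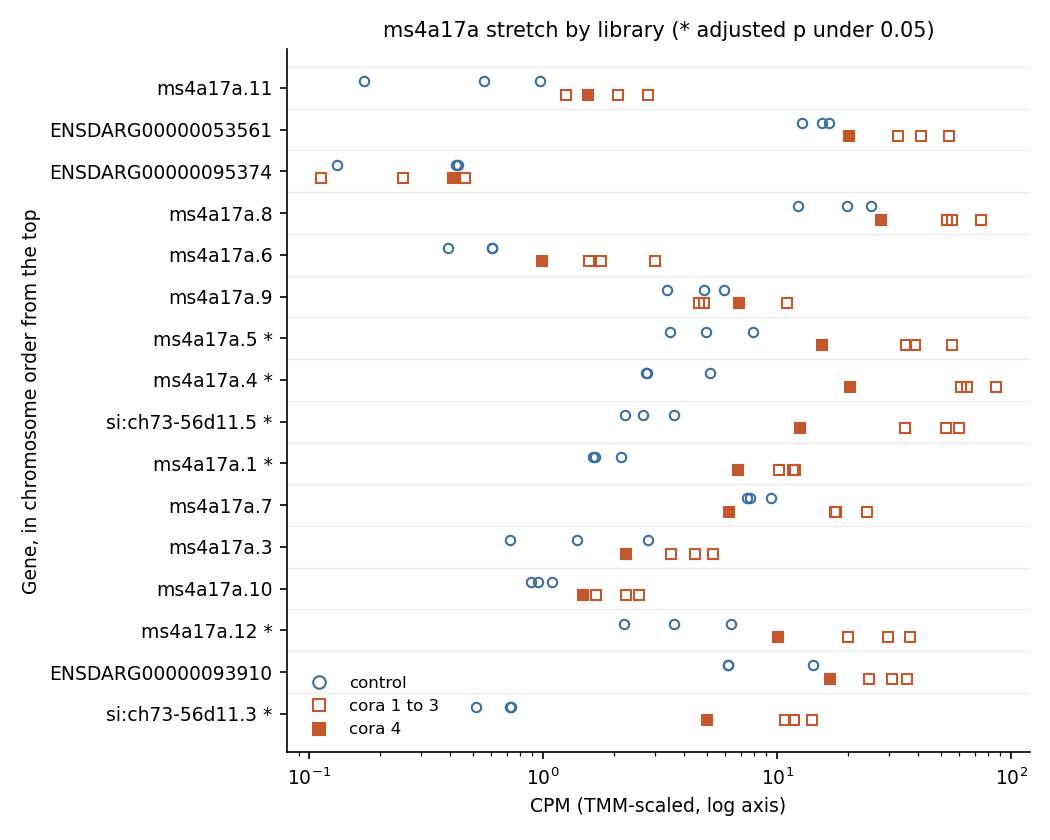
TMM-scaled CPM (horizontal log axis) of the 16 tested genes of the ms4a17a stretch in 3 control libraries (circles) and 4 cora libraries (squares, cora 4 filled), in chromosome order from the top; a star marks an edgeR adjusted p under 0.05. For 12 of the 16 genes the squares lie to the right of all circles, and cora 4 is the lowest cora library for 13.

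The 10 tested genes of the stretch that were not called included those with the highest levels in controls. ms4a17a.8, the gene with the highest mean level in the stretch at 34.1 RPKM, stood at 12.2, 25.1 and 19.9 CPM in controls and at 56.0, 53.3, 74.5 and 27.9 CPM in cora 1 to 4 (log2 fold change 1.47, SE 0.37, edgeR adjusted p = 0.0791). ENSDARG00000053561 stood at 12.7, 16.6 and 15.6 CPM and at 41.1, 32.7, 54.4 and 20.3 CPM (log2 fold change 1.31, SE 0.33, edgeR adjusted p = 0.0791). ENSDARG00000093910 stood at 14.2, 6.16 and 6.15 CPM and at 24.7, 31.0, 36.0 and 16.8 CPM (log2 fold change 1.62, SE 0.39, edgeR adjusted p = 0.0729). These 3 genes missed the threshold although their groups did not overlap. The remaining members were ms4a17a.11, ms4a17a.6, ms4a17a.10, ms4a17a.3, ms4a17a.7 and ms4a17a.9, with log2 fold changes from 0.53 to 1.77, and ENSDARG00000095374, at 0.11 to 0.46 CPM in all libraries and with a log2 fold change of -0.09. ms4a17a.9 (log2 fold change 0.53, SE 0.39, edgeR adjusted p = 0.529) and ENSDARG00000095374 (SE 0.75, edgeR adjusted p = 0.969) had the smallest differences of the stretch. The seventeenth gene, ENSDARG00000092983, had counts in cora 3 only and was not tested.

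Summed over the stretch, the level was 82.2, 82.7 and 69.8 CPM in control 1, control 3 and the unnumbered control and 362, 333, 471 and 155 CPM in cora 1 to 4. This gave 78.2 ± 7.32 CPM (SD, n = 3) for controls and 330 ± 131 CPM (SD, n = 4) for cora libraries, a ratio of 4.22. In cora 1 to 4 the lens markers summed to 0.241%, 0.0612%, 0.343% and 0.666% of counts and the liver markers to 0.347%, 0.444%, 0.966% and 2.36%. Both were highest in cora 4, where the stretch was lowest. The epidermis markers, at 1.80%, 3.01%, 1.66% and 1.97% in cora 1 to 4, were highest in cora 2. The part of these markers in the result was not tested. Of 5 leukocyte markers 3 could be matched and 0 were called, and their sum was 0.0019% to 0.0035% of counts in controls and 0.0012% to 0.0054% in cora libraries.

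Besides the 11 genes that share the ms4a17a symbol, the similarity of the genes of the stretch was not examined, and 7 of the 17 have exons that overlap those of a neighbour on the same strand. ms4a17a.4 and ms4a17a.5 share 24 exonic bases, and ms4a17a.1 and si:ch73-56d11.5 begin at the same position and share 45, all on the same strand. The counting of reads that match several genes is not stated, so the split of reads between these genes is uncertain. A sum over the stretch does not depend on such a split. It does depend on whether shared reads were dropped or counted more than once. Outside the stretch, 3 more ms4a17 genes were looked up after values were seen. ms4a17a.16, on the opposite strand at chr4:60384989 onward, stood at 0.26, 0.97 and 1.01 CPM in controls and at 2.22, 2.95, 0.092 and 0.45 CPM in cora 1 to 4. Its groups overlapped, with cora 3 and cora 4 low (log2 fold change 0.92, SE 1.00, edgeR adjusted p = 0.689). ms4a17c.1 and ms4a17c.2, on chromosome 5, had too few counts to be tested.

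Of the gene families for which the arm is known, the members that could be told by name were found at low levels. The 1521 long arm genes with no name could not be placed in a family. The files gave 44 long arm genes a zinc finger name, and 42 of these were detected but only 11 tested, with 8 log2 fold changes below 0 and 3 above, a median of -0.36, and 0 calls by edgeR, DESeq2 or voom with or without sample quality weights. By contrast 133 of 178 genes so named over the whole table, which include these 44, were tested. The tested genes had a median of 0.45 RPKM on the arm and 2.29 RPKM over the whole table. Summed, the 44 long arm members stood at 19.1, 25 and 25.3 CPM in controls. In cora 1 to 4 the sum was 20.5, 18.9, 23.1 and 19.5 CPM, with overlap between the groups. The members lay from 0.73 to 34.2 Mb from the boundary, 30 of the 44 in the inner 25 Mb, and their median total over all libraries was 27 counts. znf1059, the highest of them at 1.90 RPKM, stood at 4.43, 4.98 and 7.0 CPM in controls and at 3.85, 5.38, 4.57 and 4.93 CPM in cora libraries (log2 fold change -0.22, SE 0.30, edgeR adjusted p = 0.755). znf1068, picked after its values were seen as the only member with an unadjusted p under 0.05, stood at 0.78, 0.49 and 0.46 CPM and at 0.084, 0.037, 0.046 and 0.205 CPM, near the 0.0910 to 0.139 CPM that 3 counts are worth. Its log2 fold change was -2.55 (SE 0.76, edgeR adjusted p = 0.1249).

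Of the other families, the NLR genes had 1 named member, nlrc3l2. It stood at 1.25, 0.88 and 1.28 CPM in controls and at 1.59, 4.60, 0.28 and 1.48 CPM in cora libraries, with cora 2 high, cora 3 low and overlap between the groups (log2 fold change 0.81, SE 0.77, edgeR adjusted p = 0.642). The mean level of nlrc3l2 was 0.44 RPKM, and the 10 tested genes with an NLR name over the whole table had a median of 0.40 RPKM. Named small nuclear RNAs were 7 U1 entries and 1 U6 entry, of which 2 had any count and none more than 2 in a library. The 1 named 5S ribosomal RNA had 0 counts in all libraries. Over the whole table, 20 of 42 genes with a spliceosomal small nuclear RNA name and 272 of 501 with a 5S name were detected. Only 1 and 7 of these were tested, so low counts in these classes were not particular to the arm. No long arm gene had a microRNA, transfer RNA or histone name. Genes with no name numbered 1521, of which 590 (38.8%) were detected and 135 tested, with 0 calls by edgeR, 6 higher and 4 lower at an unadjusted p under 0.05, and a median log2 fold change of 0.04. Among them voom called 0, DESeq2 4 (1.45%) and voom with sample quality weights 8 (5.93%), again below the shares of these tools over all genes.

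Outside the stretch 28 long arm genes had a symbol that was neither a clone name nor a family name above, and all 28 were detected, 25 tested and 0 called by edgeR, with 3 higher and 1 lower at an unadjusted p under 0.05. Voom called 0 of these, DESeq2 1 (3.85%) and voom with sample quality weights 3 (12%), against 7.49% and 14.4% over all genes. These shares leave out the stretch, whose limits were set after the values were seen. CERK, ceramide kinase and the gene nearest to the boundary on the long arm (chr4:27195469-27254442), stood at 30.4, 29.6 and 26.9 CPM in controls and at 27.0, 28.5, 27.7 and 42.0 CPM in cora 1 to 4. Only cora 4 stood apart, and the log2 fold change was 0.11 (SE 0.22, edgeR adjusted p = 0.841). TBC1D22A, the nearest gene assigned to the other side by its start (chr4:26923872-27193922, so it extends past the boundary), stood at 14.4, 13.3 and 20.1 CPM and at 23.4, 28.2, 15.8 and 13.6 CPM (log2 fold change 0.35, SE 0.30, edgeR adjusted p = 0.610). The mean levels per length of CERK and TBC1D22A were 5.07 and 5.23 RPKM.

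The genes cct2, NUP50 and ENSDARG00000088951 were named for their high mean levels and were not called by edgeR. cct2, a subunit of the cytosolic chaperonin that folds actin and tubulin, stood at 18.9, 13.9 and 14 CPM in controls and at 14, 16.7, 17.3 and 13.4 CPM in cora libraries (log2 fold change -0.02, SE 0.22, edgeR adjusted p = 0.973). NUP50, a protein of the nuclear pore, stood at 46.7, 38.9 and 40.8 CPM and at 51.5, 48.7, 49.9 and 50.8 CPM, and every cora library was above every control, with a log2 fold change of only 0.25 (SE 0.17, edgeR adjusted p = 0.496). The unnamed ENSDARG00000088951 stood at 26.8, 14.3 and 11.7 CPM and at 26.2, 27.9, 27.3 and 19.3 CPM (log2 fold change 0.52, SE 0.31, edgeR adjusted p = 0.431). Its groups overlapped through control 1 alone, and voom with sample quality weights called it (log2 fold change 0.90, adjusted p = 0.0237).

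Larger differences that did not pass the threshold were found in both directions. ptprb, a receptor tyrosine phosphatase of blood vessel endothelium, stood at 23.1, 20.1 and 19.4 CPM in controls and at 11.4, 12.8, 5.54 and 12.6 CPM in cora libraries, each below each control (log2 fold change -0.98, SE 0.30, edgeR adjusted p = 0.134). ptprb was called by voom with sample quality weights (log2 fold change -0.99, adjusted p = 0.0320). Of 4 endothelium markers, 1 could be matched, with a log2 fold change of -0.02, and it was not called. Its share was 0.0015% to 0.0035% of counts in controls and 0.0017% to 0.0031% in cora libraries. si:dkey-240n22.2 stood at 27.1, 14.4 and 14.1 CPM and at 9.0, 6.32, 4.11 and 19.5 CPM (log2 fold change -0.93, SE 0.50, edgeR adjusted p = 0.377). terfa, a telomere repeat-binding factor, stood at 18.0, 5.40 and 6.09 CPM and at 5.48, 10.02, 4.67 and 3.57 CPM (log2 fold change -0.72, SE 0.50, edgeR adjusted p = 0.505). For terfa the value of control 1 set the sign, since without that library the log2 fold change was 0.06.

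Of the 18 genes outside the stretch with an unadjusted p under 0.05, 4 more are given as examples, chosen after their values were seen and by no rule. ENSDARG00000093925 stood at 1.55, 3.37 and 3.40 CPM in controls and at 0.80, 1.16, 0.60 and 0.70 CPM in cora libraries (log2 fold change -1.76, SE 0.47, edgeR adjusted p = 0.0953), with no overlap. fasn2, named for fatty acid synthase, stood at 0.22, 0.70 and 0.75 CPM and at 8.08, 1.94, 1.62 and 1.4 CPM, with cora 1 far above the others (log2 fold change 2.53, SE 0.79, edgeR adjusted p = 0.142). gbp4, of the interferon-induced guanylate-binding proteins, stood at 1.29, 1.79 and 1.18 CPM and at 2.13, 6.58, 1.57 and 4.39 CPM (log2 fold change 1.37, SE 0.55, edgeR adjusted p = 0.235). In gbp4 cora 3 fell within the range of the controls. PACSIN2, which shapes membranes in endocytosis, stood at 32.2, 13.7 and 16.8 CPM and at 37.3, 45.2, 35.8 and 28.5 CPM, the groups overlapping only through control 1 (log2 fold change 0.81, SE 0.32, edgeR adjusted p = 0.224). Without control 1, PACSIN2, ENSDARG00000093925 and ENSDARG00000091235, which is not among the examples, were called outside the stretch. Voom with sample quality weights also called PACSIN2 and ENSDARG00000093925 (adjusted p = 0.0085 and 0.0133). DESeq2 called ENSDARG00000093925 (adjusted p = 0.010) and fasn2 (adjusted p = 0.0138). Not among the examples, si:ch211-178j18.3 and si:ch211-250m6.12 were also called by DESeq2 (edgeR log2 fold changes 2.03 and 2.53, no overlap). si:ch211-178j18.3 was called by voom with sample quality weights as well.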

How the data were processed

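RNA was extracted from pooled hearts and libraries were made with a SMARTer mRNA kit. Per the labels' processing notes, STAR 2.0.4b, Subread featureCounts 1.4.5, edgeR and limma were used. Whether counting used the strand or reads matching several places is not given in the sources used here. The authors deposited, per library, counts on 33737 Ensembl genes (Zv9), CPM (counts relative to the library's sum, deposited by the authors) and RPKM (CPM per kilobase of exon, deposited by the authors). Only counts entered tests. In R 4.3.3 with edgeR 4.0.16, libraries were scaled by TMM, low genes removed by filterByExpr, and cora compared with control by glmQLFit and glmQLFTest, with Benjamini-Hochberg adjustment over 21632 genes. An adjusted p under 0.05 was a call. CPM and RPKM in the text were computed from counts with TMM-scaled library sizes. Detected means at least 1 count, and between 0.0910 and 0.139 CPM equal 3 counts. Log2 fold changes used a prior count of 0.125.

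Symbols matched 21939 IDs (65.0%). The zinc finger class rests on names alone, since no protein sequences were used here, and the planned count of fingers per protein was not run. No sequence is printed. Genes named were the calls (at most 10 lower and 10 higher), the 10 with the highest mean RPKM, the highest of each class, the 3 largest falls and rises among genes with a mean of at least 2 log2 CPM, and those nearest to the boundary; others are marked. Members and lists were chosen with earlier results of these data known. No replicates agreed within sampling noise. The labels do not say that libraries are from separate clutches, so p-values measure the spread between these pools. Alternatives were DESeq2 1.42.0 and its size factors, library size alone, no mitochondrial genes, other filters, limma 3.58.1 voom with and without sample weights, a replicate block, each library left out, and boundaries 3 Mb to either side. The test was also run on simulated counts, with the spread between replicates estimated from these data and with a smaller spread. A minimum of recovered changes was required only at the smaller spread, so this check does not give the power in these libraries.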

Additional observations from a re-analysis of the deposited data

Results flagged for a closer look

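Among the cora libraries, 34 sets of 4 values were examined for a library that stood apart, and 2 such values were found, where chance gives about 1 in 20. CERK was at 42.0 CPM in cora 4, far above the other 3 cora libraries at 27.0 to 28.5 CPM. The median level of tested genes below the boundary was 3.73 RPKM in cora 1, against 3.99 to 4.05 RPKM in the other 3. No such value was found among the sums for the long arm, its share of genes detected or its share of counts.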

How the results depend on the processing

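Without 1 library, long arm genes called lower numbered 0 to 1 and higher 1 to 10, and the median log2 fold change was 0.0078 to 0.32; below the boundary these were 2 to 15, 0 to 14 and -0.095 to -0.039. DESeq2 called 1 lower and 14 higher on the long arm and 25 and 20 below the boundary, and voom with sample quality weights 2 and 20 (median 0.22) and 46 and 29 (median -0.10). Voom alone called 4 higher below the boundary, where library size alone gave a median of 0.018. Without the ms4a17a stretch 0 long arm genes were called higher, an alternative chosen after seeing the data. The replicate block, over the 4 libraries numbered 1 and 3, gave 0 calls on either side of the boundary and over all 21404 genes tested, and medians of 0.03 and -0.0093. Deviations of same-numbered libraries correlated at 0.058 and 0.032, and no label ties a number to a clutch. All 6 called genes kept their direction in that fit, with adjusted p from 0.0609 to 0.120.

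The share of genes detected was 31.3% on the long arm and 85.8% below the boundary with at least 10 counts over the libraries, 19.7% and 74.9% with at least 1 count in every library, and 13.9% and 75% for genes kept by filterByExpr. With the boundary at 30000000 it was 86.0% below. The median level was 0.059 RPKM on the long arm and 2.44 RPKM below the boundary over detected genes, and 0 and 2.14 RPKM over all genes. The log2 ratio of the arm's share of counts, 0.82 over all members, was 0.62 to 0.93 with single libraries left out. It was 0.17 without ENSDARG00000005039 and the stretch.

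Signs of values that were not called changed as follows. The replicate block gave -0.13 for CERK, -0.59 for nlrc3l2 and -0.18 for ms4a17a.9. Voom with sample quality weights gave -0.12 for ms4a17a.16, 0.22 for ENSDARG00000095374 and 0.086 for cct2, and library size alone gave 0.049 for ENSDARG00000037665 and 0.069 for cct2. With single libraries left out, the ranges were -0.060 to 0.18 for CERK, -0.16 to 0.11 for ENSDARG00000037665, -0.018 to 1.17 for nlrc3l2, -0.47 to 0.19 for ENSDARG00000095374, -1.10 to 0.061 for terfa and -0.094 to 0.15 for cct2. Causes were not tested. Of 535 values for 34 named genes under an alternative, 466 kept direction and side of the threshold, 25 lost and 25 gained a call and 19 changed sign. With a median standard error of 0.63, many differences of single long arm genes could not be resolved in these libraries, including some well above that size. The smallest log2 fold change called by edgeR on the arm was 2.48 (ms4a17a.1), while znf1068 at -2.55 was not called.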
